A study of Mus musculus with 24 samples.

Results

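The troponin subunits are 8 genes that encode the calcium switch of striated muscle, and they were read out here in 4 tissues of Trex1-/- mice given PBS or SN-011, namely heart, tongue, muscle and stomach. The members were taken as every row of the 24 count files whose Ensembl identifier carries the symbol Tnnt1, Tnnt2, Tnnt3, Tnni1, Tnni2, Tnni3, Tnnc1 or Tnnc2 in GENCODE M21, and all 8 were found among 54532 gene identifiers. Each of the 8 groups, a tissue with a treatment, held 3 samples.

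In striated muscle, troponin sits on the thin filament of actin and tropomyosin as a complex of troponin C, which binds calcium, troponin I, which inhibits contraction at low calcium, and troponin T, which ties the complex to tropomyosin. Each subunit is encoded by separate genes for different fibre types. Tnnt1 and Tnni1 are the slow skeletal forms, Tnnt3, Tnni2 and Tnnc2 the fast skeletal forms, Tnnt2 and Tnni3 the cardiac forms, and Tnnc1 is shared by slow fibres and heart.

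All mice lacked Trex1, a cytosolic DNA exonuclease, on a C57BL/6J background, so that the controls carried the deletion too and no wild-type tissue was compared. SN-011 is an antagonist of STING, the adaptor that signals downstream of the DNA sensor cGAS, and the question behind the treatment comparison was how its inhibition changes the tissues of these lupus-like mice. The control samples are labelled untreated, and the study's methods describe them as given vehicle, 1% Tween 80 in PBS, from which they are called PBS here. The labels give SN-011 at 5 mg/kg on 3 days a week over 4 weeks, whereas the methods give 10 mg/kg a day into the peritoneum over 2 weeks in mice of 1 month, and which schedule applies to these libraries could not be settled. The muscle is not named beyond that word, and the region of heart, stomach or tongue that was taken is not stated.

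Total counts ran from 14253416 to 18443329 per library, at which a count of 0 allows up to 0.163 to 0.210 CPM (counts scaled to a library of a fixed size, 1e6, here 3 counts of the total, for counting error only). Trex1 itself had 0 counts in every library, although its annotated span lies within that of Atrip, so that this checks little. The heart libraries held 223867 to 317555 counts of the cardiac myosin gene Myh6, the muscle libraries 671139 to 856029 of the fast myosin gene Myh4, the tongue libraries 68978 to 484455 of the squamous keratin gene Krt13 beside 91488 to 148729 of Myh4, and the stomach libraries 40806 to 587324 of the gastrokine gene Gkn1, which match the labelled tissues. A few libraries stood apart. Stomach PBS replicate 1 held 3164 counts of the skeletal actin gene Acta1 where the other PBS stomachs held 38 and 35. Muscle PBS replicate 2 was low in slow-fibre genes, with 448 counts of the slow myosin gene Myh7 against 1843 and 2654. Muscle SN-011 replicate 2 detected 11546 genes where the other libraries detected 19798 to 24264, and its Pvalb level, that of the fast-fibre calcium buffer parvalbumin, was 42364 CPM against 16277 and 17525 in the other SN-011 muscles. PBS replicate 1 of every tissue carried Xist, with 3060 to 13811 counts, and every other library had 0 to 20. Ddx3y, a gene of the Y chromosome, had 0 to 3 counts in those libraries and 825 to 1898 in the others. By these genes PBS replicate 1 was female and all SN-011 samples were male, so sex was not balanced between the treatments. Stomach genes were also present elsewhere, as Gkn1 reached 4952 counts in heart PBS replicate 2, 9181 in tongue PBS replicate 3 and 2796 in muscle PBS replicate 2. Results that rest on these libraries are given below with and without them.

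The genes of this family lie mostly in pairs of a troponin I and a troponin T gene (mm10, GENCODE M21). Tnnt1 (ENSMUSG00000064179, chr7:4504570-4516382, minus strand) and Tnni3 (ENSMUSG00000035458, chr7:4518305-4524229, minus strand) were 1.9 kb apart with no gene between them. Tnni2 (ENSMUSG00000031097, chr7:142441808-142444410, plus strand) and Tnnt3 (ENSMUSG00000061723, chr7:142498836-142516009, plus strand) were separated by 54.4 kb and 1 gene, and Tnni1 (ENSMUSG00000026418, chr1:135779434-135810989, plus strand) and Tnnt2 (ENSMUSG00000026414, chr1:135836354-135852260, plus strand) by 25.4 kb and 1 gene. The troponin C genes stood alone, with Tnnc1 (ENSMUSG00000091898) at chr14:31208312-31211729 on the plus strand and Tnnc2 (ENSMUSG00000017300) at chr2:164777161-164779967 on the minus strand. Within a class the coding sequences were 68.5 to 71.4% identical, and the longest stretch shared exactly by the transcripts of any such pair was 14 to 22 bases, well under the 150 bases of a read. Overlap with other genes was a larger limit. Of the 800 annotated exon bases of Tnnc2, 592 (74.0%) are also exon of Ube2c, a ubiquitin-conjugating enzyme gene on the opposite strand, and 86 bases (4.17%) of Tnni3 are also exon of Dnaaf3 on the same strand.

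Levels of different genes are compared below as CPM per kb, that is CPM scaled by the trimmed mean of M values (TMM) over all 24 libraries and divided by the length of each gene's principal transcript. On this scale heart and stomach each had their own set of main troponin transcripts, and muscle and tongue shared theirs. Heart was dominated by Tnnt2, Tnni3 and Tnnc1, muscle and tongue by Tnnt3 and Tnni2, and stomach held low levels of Tnni2 and Tnni3 with little troponin T.

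**Figure D1:**
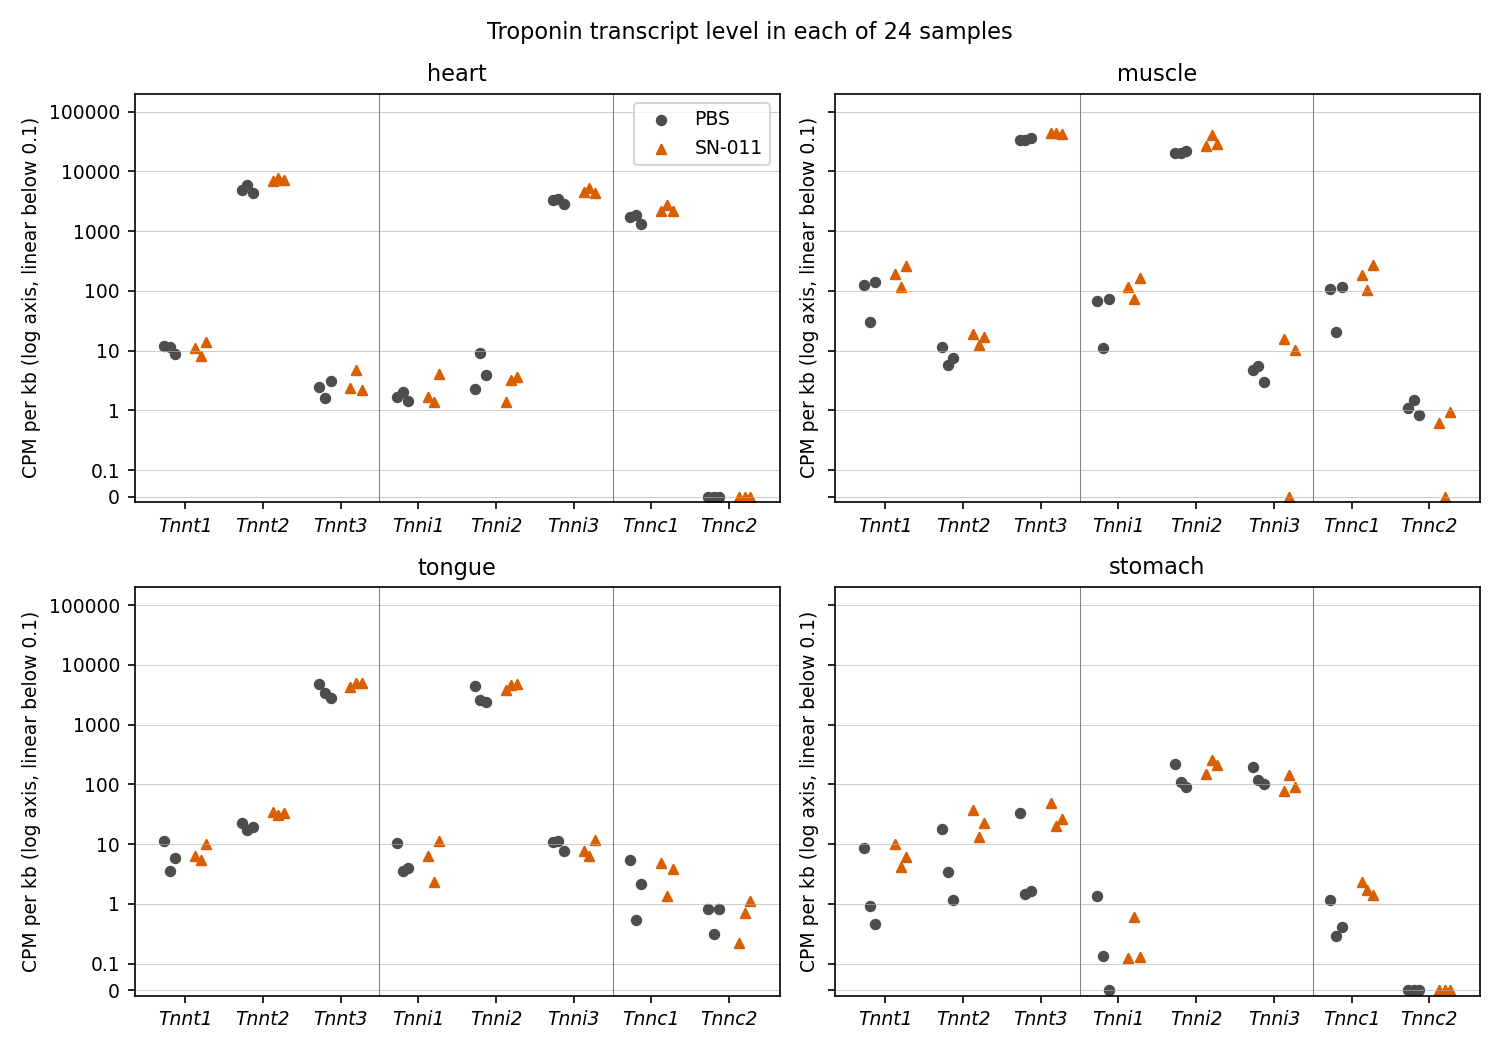
Levels of the 8 troponin genes in CPM per kb (log axis, linear near 0) in each of the 24 samples, by tissue and treatment, with points for single samples. Tnnt2, Tnni3 and Tnnc1 were at 1306 or more in all heart samples, and Tnnt3 and Tnni2 at 20168 or more in all muscle samples and 2371 or more in all tongue samples.

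In the PBS hearts Tnnt2 stood at 4928, 5863 and 4350 CPM per kb (5047 ± 764, SD, n = 3). Tnni3 stood at 3306, 3462 and 2836 (3201 ± 326). Tnnc1 stood at 1729, 1837 and 1306 (1624 ± 281). These 3 genes, the cardiac set, made up nearly the whole of their classes, since Tnnt2 was 99.7 to 99.8% of troponin T, Tnni3 99.7 to 99.9% of troponin I, and Tnnc1 100% of troponin C in the PBS hearts. Tnnt1 came next at 10.8 ± 1.80 CPM per kb, and Tnni1, the troponin I of the embryonic heart and of slow fibres, at 1.73 CPM per kb. Tnni2 was at 2.30, 9.20 and 3.88 CPM per kb in the PBS hearts. It was highest in replicate 2, the heart library with the most Gkn1, and the part of stomach RNA in that value was not tested.

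In the PBS muscles Tnnt3 stood at 33202, 33136 and 35366 CPM per kb (33901 ± 1269) and Tnni2 at 20568, 20168 and 22073 (20936 ± 1004). Tnnt3 made up 99.7 ± 0.18% of troponin T and Tnni2 99.7 ± 0.15% of troponin I. Among the slow forms, Tnnt1 and Tnni1 made up under 1% of their classes. Tnnt1 stood at 126, 29.6 and 139 CPM per kb, Tnni1 at 67.6, 11.1 and 72.3, and Tnnc1 at 107, 20.8 and 116. All 3 slow genes were lowest in PBS replicate 2, the library that was also low in Myh7.

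In the PBS tongues the fast forms again led, at a lower level and with a wider spread. Tnnt3 stood at 4828, 3329 and 2836 CPM per kb (3664 ± 1037) and Tnni2 at 4444, 2586 and 2371 (3134 ± 1140), and they made up 99.3 ± 0.14% and 99.5 ± 0.05% of their classes. No slow form exceeded 11.2 CPM per kb in a PBS tongue, and Myh7 had 0 to 2 counts there. Tnnt2, the cardiac troponin T, was the next most abundant troponin T at 22.7, 17.1 and 19.3 CPM per kb, while Myh6 had 3 to 6 counts in the same libraries.

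The fast troponin C gene could not be read as a level. Tnnc2 had 9, 11 and 7 counts in the PBS muscles, 12, 4 and 11 in the PBS tongues, and 0 in all 12 heart and stomach libraries. Troponin C as a whole, Tnnc1 plus Tnnc2, therefore came to 0.00240 ± 0.00150 of troponin T in the PBS muscles and 0.000855 ± 0.000534 in the PBS tongues, against 0.321 ± 0.0262 in the PBS hearts. Ube2c, the gene that shares its exons, had 91 to 119 counts in the PBS muscles and 1014 to 1304 in the PBS tongues. The strand setting used in counting is not given in the sources used here, and the part of the overlap in the near absence of Tnnc2 was not tested. Its share of troponin C, 2.78 ± 3.32% in the PBS muscles and 26.1 ± 12.1% in the PBS tongues, is accordingly a share of counted reads only.

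Stomach differed from the striated tissues in having troponin I with little troponin T. In the PBS stomachs Tnni2 stood at 222, 111 and 89.8 CPM per kb and Tnni3, the cardiac form, at 195, 119 and 99.8. The ratio of troponin I to troponin T per kb ran from 6.96 to 57.7 over the PBS stomachs and from 2.34 to 10.6 over the SN-011 stomachs. It was 0.637 ± 0.0411 in the PBS hearts, 0.617 ± 0.00778 in the PBS muscles and 0.843 ± 0.0715 in the PBS tongues. Tnni3 came without its cardiac partners, as Myh6 had 0 to 9 counts, Tnnt2 stood at 17.8, 3.48 and 1.15 CPM per kb, and Tnnc1 at 0.290 to 1.15. Dnaaf3, with which Tnni3 shares a few exon bases, had 4 to 70 counts over the 6 stomach libraries. Tnnt3 stood at 33.5 CPM per kb in PBS replicate 1 and at 1.45 and 1.67 in the others, and that library also led in Tnnt1, Tnnt2 and Acta1.

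Tissues were compared in 1 edgeR quasi-likelihood fit of all 24 libraries (19731 genes, Benjamini-Hochberg adjusted p under 0.05). All 8 troponin genes differed between PBS heart and PBS muscle, where 33.7% of all genes did. The cardiac genes were higher in heart, by a log2 difference of 9.24 (SE 0.80, adjusted p = 1.88e-08) for Tnnt2, 9.52 (SE 0.91, adjusted p = 7.75e-08) for Tnni3 and 4.32 (SE 0.66, adjusted p = 3.39e-05) for Tnnc1. The other 5 were lower in heart, from -13.77 (SE 1.20) for Tnnt3 and -12.00 (SE 0.69) for Tnni2 to -4.86 (SE 0.88) for Tnni1 and -3.19 (SE 0.74) for Tnnt1. Tnnc2 was called lower as well, against hearts at 0 counts, for which the fit gives no usable fold. The fit with the replicate number as a block also called all 8.

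Between PBS tongue and PBS muscle 5 of 8 differed, where 38.1% of all genes did, and all 5 were lower in tongue. They included slow and fast forms alike, with log2 differences of -4.90 (SE 0.70) for Tnnc1, -3.83 (SE 0.76) for Tnnt1 and -3.08 (SE 0.80) for Tnni1 beside -3.21 (SE 0.78) for Tnnt3 and -2.74 (SE 0.46) for Tnni2. Tnnt2 and Tnni3 went the other way, at 1.24 (SE 0.58, adjusted p = 0.0985) and 1.19 (SE 0.67, adjusted p = 0.174). Tnni3 passed the threshold in the fit of the 12 PBS libraries, both with the replicate number as a block (log2 difference 1.16, adjusted p = 0.00678) and without it (1.15, adjusted p = 0.0137). Scaled by library size alone both were called, Tnnt2 at 2.05 and Tnni3 at 2.01, and Tnnt2 was also called with no count filter (1.27, adjusted p = 0.0472) and by DESeq2 (1.39, adjusted p = 0.0314). Squamous epithelium, which tongue holds and muscle lacks, moved with this comparison, since all 6 of its marker genes were higher in tongue, and its part in the lower troponin levels was not tested. In tissue RNA, fewer fibres and less transcript per fibre cannot be told apart.

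Between PBS heart and PBS tongue 6 of 8 differed, where 29.1% of all genes did. Tnnt2 (8.0, SE 0.76), Tnni3 (8.33, SE 0.86) and Tnnc1 (9.22, SE 0.83) were higher in heart, and Tnnt3 (-10.56, SE 1.08), Tnni2 (-9.26, SE 0.62) and Tnnc2 were lower. Tnnt1 (0.64, adjusted p = 0.534) and Tnni1 (-1.78, adjusted p = 0.106) were not separated between them.

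Against stomach, 7 of 8 genes differed in muscle (51.6% of all genes), 6 in tongue (36.9%) and 5 in heart (42.5%). Tnni3 was higher in stomach than in muscle or tongue, the opposite of the fast genes. Its log2 difference of muscle minus stomach was -4.98 (SE 0.75, adjusted p = 1.32e-05) and of tongue minus stomach -3.79 (SE 0.70, adjusted p = 0.000255). Tnni2 was higher in stomach than in heart, with heart minus stomach at -4.79 (SE 0.51, adjusted p = 3.74e-07). Tnnt2 was not separated between stomach and muscle (0.17, adjusted p = 0.828) or stomach and tongue (1.42, adjusted p = 0.0606). Stomach PBS replicate 1 decided several of these values. Tnnt3 was lower in heart than in stomach (-2.32, adjusted p = 0.0212), and without that library the difference was 0.62, not called, while without heart PBS replicate 1 or 2 it kept its sign and lost its call (-2.33 and -2.11). Without stomach PBS replicate 1, Tnnt1 (3.97) and Tnni1 (4.65) were called higher in heart than in stomach, and Tnnt2 was called higher in tongue (3.10) and in muscle (1.85) than in stomach, and all 8 troponin genes then differed both between tongue and stomach and between muscle and stomach.

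Ordered by the mean in PBS samples, Tnnt3 and Tnni2 fell from muscle through tongue and stomach to heart, each step called, the last for Tnnt3 with the exceptions above. Tnnc1 fell from heart through muscle and tongue to stomach, each step called, the last (2.20, adjusted p = 0.0297) lost when any of tongue PBS replicate 1, stomach PBS replicate 2 or stomach PBS replicate 3 was left out. Tnni3 fell from heart to stomach and then to tongue and muscle, the last step not called in the fit of all libraries. Tnnt2 was highest in heart, with tongue, muscle and stomach not separated in the same fit. Tnnt1 was highest in muscle, with heart, tongue and stomach not separated in the fit of all libraries. Tnni1 was highest in muscle, and heart was not separated from tongue or from stomach.

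The SN-011 samples gave the same counts for the striated pairs, with 8 troponin genes differing between heart and muscle (39.2% of all genes), 5 between tongue and muscle (44.1%) and 6 between heart and tongue (32.6%).

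Profiles over all 24 libraries were compared as the root mean square (RMS) difference of log2 CPM, each gene centred on its own mean. Leaving aside Tnnc2, whose counts are close to 0, the closest troponin pair was Tnnt1 and Tnni1, the slow forms, at 1.41. The fast pair Tnnt3 and Tnni2 followed at 1.98, the cardiac pair Tnnt2 and Tnni3 at 2.57, and Tnnt2 and Tnnc1 at 2.73. Tnnt1 and Tnni3, which neighbour each other in the genome, differed by 5.30. The genes outside the family that lay nearest were Mylpf (0.767), the fast regulatory myosin light chain, and Atp2a1 (0.817), the fast calcium pump, for Tnnt3. Tnni2 was nearest Mylpf (1.33) and Mybpc1 (1.67), a myosin-binding protein gene of the slow fibre list used here. The largest difference of Mybpc1 from Tnni2 in a library was 5.90 in log2. Tnnt2 was nearest Mylk3 (1.10), the cardiac myosin light chain kinase, and Mhrt (1.11), a non-coding RNA of the Myh7 locus. Tnni3 was nearest Fhl2 (1.30) and Ryr2 (1.38), the cardiac calcium release channel, and Tnnc1 nearest Adprhl1 (1.59) and Myh7b (1.59). Tnnt1 was nearest Fbxo32 (0.860), a ubiquitin ligase of muscle atrophy, and Fam131a (0.882), and Tnni1 nearest Rtn2 (0.990) and Gm47908 (1.05). Those for Tnnc2, Lhb (0.567) and Gm37759 (0.599), reflect counts close to 0. The libraries share tissues and depth, so these distances are a description.

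After SN-011 no troponin gene passed the adjusted threshold in any tissue by the edgeR quasi-likelihood test fitted within each tissue. Over all genes tested 0.848% were called in heart, 0.0141% in muscle, and 0% in stomach and tongue. At an unadjusted p under 0.05 there were 3 troponin genes in heart, 3 in muscle, 1 in tongue and 0 in stomach, against 22.4, 14.8, 12.5 and 24.6% of all genes. Tnnc2 was not tested in heart, stomach or muscle and Tnni1 not in stomach, for low counts. The estimates were mostly above 0. Of the troponin genes that passed the count filter, 6 of 7 had a positive log2 change in heart (median 0.46), 5 of 6 in stomach (1.30), 7 of 7 in muscle (1.01) and 7 of 8 in tongue (0.23), where the median over all genes lay between -0.08 and 0.00. The values below are CPM scaled within each tissue.

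**Figure D2:**
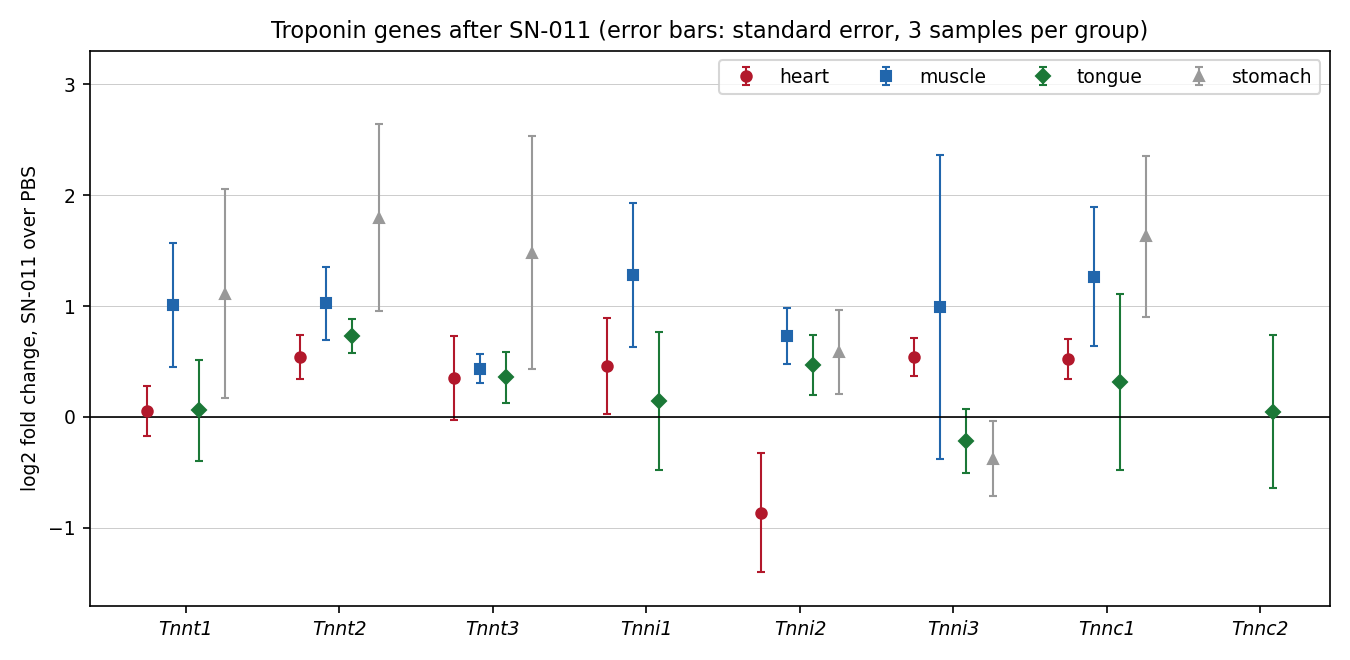
Log2 change from PBS to SN-011 for each troponin gene and tissue from the edgeR fit within that tissue, with bars for the standard error (n = 3 against 3). Most estimates lie above 0, those for the cardiac genes in heart between 0.52 and 0.54, and none passed the adjusted threshold.

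In heart the 3 cardiac genes were higher in every SN-011 sample than in every PBS sample. Tnnt2 stood at 6550, 7909 and 5815 CPM in the PBS hearts and at 9413, 10394 and 9693 in the SN-011 hearts (log2 change 0.54, SE 0.19, adjusted p = 0.155). Tnni3 stood at 3340, 3550 and 2881 and at 4582, 5258 and 4379 (0.54, SE 0.17, adjusted p = 0.127). Tnnc1 stood at 1381, 1489 and 1049 and at 1732, 2173 and 1728 (0.52, SE 0.18, adjusted p = 0.149). All samples of these genes separated by treatment, which held for 3 of the 7 troponin genes tested and in the same direction for 14.1% of all genes. With each library left out in turn the log2 change ran from 0.44 to 0.67 for Tnnt2, 0.45 to 0.61 for Tnni3 and 0.38 to 0.63 for Tnnc1. Troponin I per troponin T was 0.637 ± 0.0411 in PBS and 0.633 ± 0.0360 in SN-011 hearts, and troponin C per troponin T 0.321 ± 0.0262 and 0.316 ± 0.0273. DESeq2 called all 3 and the edgeR exact test called Tnnt2 and Tnni3, with 1354 and 912 genes called overall against 137 here. Tnni2 was the only one below 0, with 1.96, 7.94 and 3.32 CPM in PBS and 1.21, 2.83 and 3.15 in SN-011 hearts (-0.86, SE 0.54, adjusted p = 0.377), and without PBS replicate 2, the one with the most Gkn1, its log2 change was -0.13. Tnnt1 (0.06), Tnnt3 (0.35) and Tnni1 (0.46) had estimates that turned below 0 when single libraries were left out.

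Partners of troponin in the heart lay on the same side. No gene of the thin filament list (12 tested), the slow fibre list (10 tested) or the cardiac list (12 tested) was called, with 8, 9 and 11 above 0 and median log2 changes of 0.26, 0.43 and 0.30. Myoglobin, Mb, the oxygen store of heart and slow fibres, went from 3157 ± 701 to 4576 ± 317 CPM (0.54, SE 0.20, adjusted p = 0.163). Myl2, the ventricular myosin light chain, went from 3954 ± 601 to 5399 ± 241 CPM (0.45, SE 0.18, adjusted p = 0.187). The tropomyosin gene Tpm1 (0.35), Acta1 (0.34), Myh6 (0.32) and Nppa (0.58), the atrial natriuretic peptide gene, were not called either. Marker genes of other cells mostly lay below 0, and of these 1 was called. All 5 fibroblast genes tested were below 0 (median -0.76). Lum, a collagen-binding proteoglycan gene, fell from 91.7 ± 21.1 to 49.2 ± 0.747 CPM (-0.90, SE 0.16, adjusted p = 0.0481), and Col1a2 stood at -0.76 (adjusted p = 0.0888). The summed fibroblast list, on the scale set over all 24 libraries as for all such sums, ran from 1557 to 2164 CPM in PBS and from 1195 to 1269 in SN-011 hearts, the leukocyte list from 343 to 660 and from 356 to 441, and the 8 stomach markers from 22.0 to 2583 and from 5.69 to 41.9. Of 8 leukocyte genes 7 were below 0 (median -0.43) with none called, and all 6 stomach markers tested were below 0 (median -5.52) at an unadjusted p under 0.05 with none called. Of the 8 stomach markers, 6 had at least 10 counts in every PBS heart and 3 in every SN-011 heart. The count filter thus favoured markers high in PBS, and their shared sign is no test. Of the 4 adipocyte genes tested 3 were below 0 (median -0.41), with none called. The summed adipocyte list nevertheless ran higher, from 506 to 752 CPM in PBS and from 929 to 1085 in SN-011 hearts. The part of these other cells in the troponin values was not tested.

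The heart set differed in the letters around its start sites. RefSeq promoter windows (GRCm38.p6, 250 bases before to 50 after the start, 5′ to 3′ on the gene's strand) were found for 6 of the 8 genes, not for Tnnt3 or Tnni2, and those of the 3 cardiac genes are shown because these genes make up nearly all troponin in heart. They cover chr1:135836084-135836383 (plus strand) for the first of the Tnnt2 windows, chr7:4522479-4522778 (minus strand) for Tnni3 and chr14:31208062-31208361 (plus strand) for Tnnc1. Capitals mark matches, on either strand, to the MCAT letters CATTCC bound by TEAD factors or the GATA letters AGATAA.
Tnnt2: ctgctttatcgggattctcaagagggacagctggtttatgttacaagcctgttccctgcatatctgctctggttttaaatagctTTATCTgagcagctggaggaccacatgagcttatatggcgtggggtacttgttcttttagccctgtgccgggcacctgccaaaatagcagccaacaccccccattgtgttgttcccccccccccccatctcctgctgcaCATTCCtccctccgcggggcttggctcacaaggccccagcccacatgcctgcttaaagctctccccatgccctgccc
Tnni3: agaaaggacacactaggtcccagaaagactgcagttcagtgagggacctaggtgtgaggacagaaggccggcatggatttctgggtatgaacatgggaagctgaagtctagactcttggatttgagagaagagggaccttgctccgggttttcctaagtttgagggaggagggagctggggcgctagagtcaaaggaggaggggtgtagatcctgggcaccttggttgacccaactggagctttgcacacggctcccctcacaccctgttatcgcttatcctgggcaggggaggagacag
Tnnc1: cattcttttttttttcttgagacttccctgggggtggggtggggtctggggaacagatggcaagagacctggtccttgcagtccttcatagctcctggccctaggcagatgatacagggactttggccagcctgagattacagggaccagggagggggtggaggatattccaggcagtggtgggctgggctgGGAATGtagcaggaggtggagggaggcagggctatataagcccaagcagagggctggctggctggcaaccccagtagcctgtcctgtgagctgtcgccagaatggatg
The Tnnt2 window shown held 1 MCAT match and 1 GATA match, read on the minus strand, and the Tnnc1 window 1 MCAT match, also on the minus strand. The Tnni3 window held neither. A further Tnnt2 window, at chr1:135836739-135837038, is not shown and held 0 MCAT matches, 0 GATA matches and 2 E-boxes (CANNTG), the letters bound by MyoD and related factors. Of 32851 mouse promoter windows of this length, 14.7% held CATTCC and 11.2% AGATAA. E-boxes numbered 5, 1 and 2 in the windows shown for Tnnt2, Tnni3 and Tnnc1 and were present in 72.3% of all. The MEF2 and CArG motifs, searched by name, had no match in any of the 8 troponin windows and were in 3.19 and 1.63% of all, and the TATA letters TATAAA matched in Tnnt1 alone and in 13.6% of all.

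**Figure D3:**
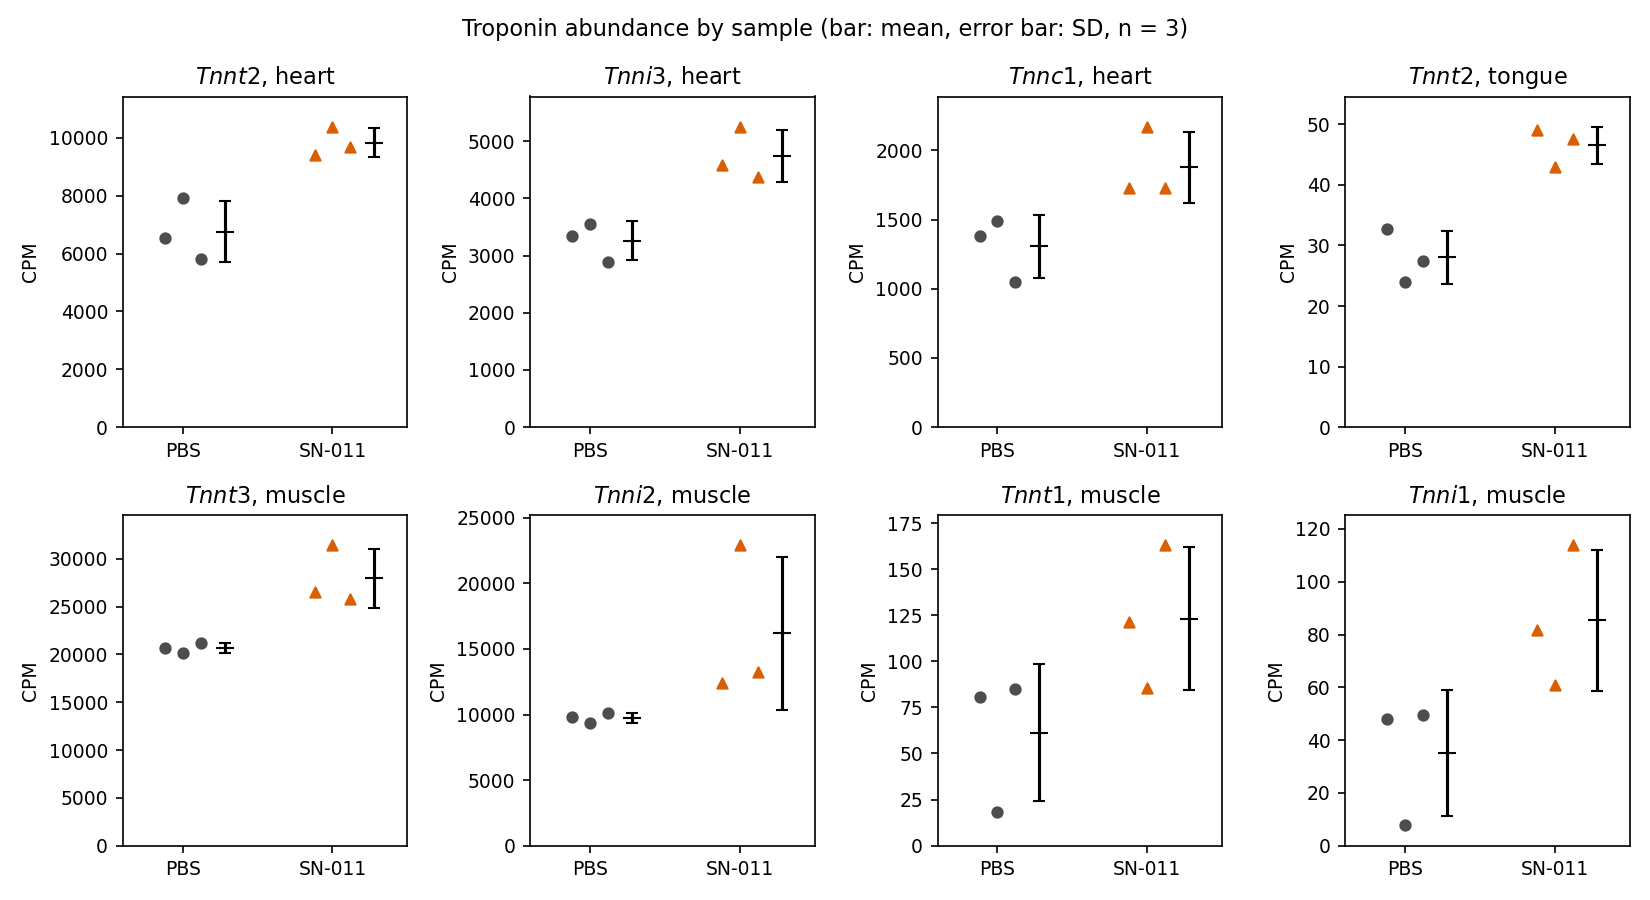
CPM by sample, scaled within each tissue, of Tnnt2, Tnni3 and Tnnc1 in heart, Tnnt2 in tongue and Tnnt3, Tnni2, Tnnt1 and Tnni1 in muscle, PBS and SN-011 side by side, with points for samples and bars for mean and SD (n = 3). The panels were drawn from genes whose treatments do not overlap, with heart Tnnt2 at 5815 to 7909 in PBS and 9413 to 10394 in SN-011.

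In muscle 6 of the 7 troponin genes tested were higher in every SN-011 sample than in every PBS sample, where 14.7% of all genes were. Tnnt3 stood at 20718, 20161 and 21192 CPM in the PBS muscles and at 26582, 31449 and 25831 in the SN-011 muscles (0.43, SE 0.13, adjusted p = 0.236). Tnni2 stood at 9789, 9359 and 10088 and at 12390, 22922 and 13275 (0.73, SE 0.25, adjusted p = 0.277). The highest SN-011 value of each came from replicate 2, the library with few detected genes and high Pvalb. Without it both were called, at log2 changes of 0.34 (adjusted p = 0.0442) for Tnnt3 and 0.40 (adjusted p = 0.0406) for Tnni2, together with Tnni3 (1.57, adjusted p = 0.0424), in a fit that called 1103 genes instead of 2. DESeq2 on all 6 libraries called Tnnt3 alone of the family.

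The slow forms in muscle varied together from sample to sample. Tnnt1 stood at 80.4, 18.4 and 84.9 CPM in PBS and at 121, 85.3 and 163 in SN-011 (1.01, SE 0.56, adjusted p = 0.471). Tnni1 stood at 48.2, 7.70 and 49.5 and at 81.6, 60.9 and 114 (1.28, SE 0.65, adjusted p = 0.427). Tnnc1 stood at 47.8, 9.05 and 49.7 and at 81.6, 54.9 and 119 (1.26, SE 0.62, adjusted p = 0.414). In all 3 genes replicate 2 was the lowest of its treatment, and the lowest SN-011 value of Tnnt1 lay just above the highest PBS value. Without PBS replicate 2 the log2 changes were 0.57 for Tnnt1, 0.80 for Tnni1 and 0.80 for Tnnc1. Other slow-fibre genes took the same side, with 11 of 12 above 0 (median 0.85) and none called. Myl2 was at 74.8 ± 51.7 and 170 ± 45.4 CPM (1.19, SE 0.66, adjusted p = 0.473), while Mb was at 945 ± 178 and 977 ± 165.

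The cardiac forms were low in muscle. Tnnt2, which is also expressed in developing muscle, stood at 8.55, 4.24 and 5.45 CPM in PBS and at 14.1, 10.7 and 12.3 in SN-011 (1.02, SE 0.33, adjusted p = 0.253). Tnni3 stood at 2.64, 3.00 and 1.61 and at 8.69, 0 and 5.67, its 0 in SN-011 replicate 2. Of 10 genes of developing and regenerating muscle 2 were above 0 and none was called (median -0.44), with Myog, a factor of muscle differentiation, at 0.50 (adjusted p = 0.569). Of the fast fibre list 9 of 12 were above 0 (median 0.07), and Mylpf was at 11295 ± 358 and 13694 ± 3362 CPM (0.28, adjusted p = 0.562). Acta1 was at 36596 ± 3603 and 48150 ± 7750 CPM (0.40, adjusted p = 0.343), Tpm1 at 0.22 and Des, the intermediate filament gene desmin, at 0.39. Of the thin filament list 9 of 12 were above 0 and 3 below (median 0.18). Of the smooth muscle list, which holds Des, 5 were above 0 and 5 below (median 0.12), and neither list had a gene called. All 5 fibroblast genes were below 0 (median -1.08), with Col1a2 at 458 ± 85.2 and 216 ± 6.65 CPM (adjusted p = 0.0855), and the summed fibroblast list ran from 1535 to 2176 CPM in PBS and 685 to 1169 in SN-011 muscles. All 6 stomach markers tested were below 0 at an unadjusted p under 0.05 (median -4.29), none of them called. Of the 8 markers, 5 had at least 10 counts in every PBS muscle and 1 in every SN-011 muscle. The count filter thus favoured markers high in PBS, and their shared sign is no test. Gkn1 had 309, 2796 and 1699 counts in the PBS and 73, 0 and 126 in the SN-011 muscles. The summed stomach list ran from 65.8 to 1203 CPM and from 16.1 to 61.9. By contrast 4 of 5 adipocyte genes (median 0.77) and 5 of 8 leukocyte genes (median 0.19) were above 0, none of them called. The summed adipocyte list ran from 465 to 2040 CPM in PBS and from 962 to 2432 in SN-011 muscles. The part of these cells in the troponin values was not tested.

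In tongue Tnnt2 had the smallest unadjusted p of the family. It stood at 32.7, 24 and 27.4 CPM in PBS and at 49.0, 43.0 and 47.5 in SN-011 (log2 change 0.73, SE 0.15, adjusted p = 0.263). Its groups did not overlap, which held for 1 of the 8 troponin genes and, in that direction, for 9.40% of all genes. DESeq2 called it (adjusted p = 0.00936). Tnnt3 stood at 5820, 3921 and 3375 and at 5027, 5883 and 5916 CPM (0.36, SE 0.23, adjusted p = 0.531). Tnni2 stood at 4086, 2323 and 2152 and at 3348, 4083 and 4422 (0.47, SE 0.27, adjusted p = 0.495). PBS replicate 1 was the highest PBS sample for all 3 genes and the lowest in Krt13, with 3919 CPM against 19523 and 30255. Krt5, another squamous gene, was not lowest there, with 62080 counts against 45851 and 62231. That library was also the only tongue sample that carried Xist (13811 counts). Without PBS replicate 1 all 3 troponin genes were called (Tnnt2 0.86, Tnnt3 0.62, Tnni2 0.82), in a fit that called 2135 genes instead of 0. The summed squamous list ran from 10683 to 46334 CPM in PBS and from 13613 to 20412 in SN-011 tongues, and the stomach markers from 41.2 to 2631 and from 10.8 to 37.6, and their part was not tested. All 7 stomach markers tested were below 0 (median -6.15) at an unadjusted p under 0.05, with none called. Of the 8 markers, 7 had at least 10 counts in every PBS tongue and 4 in every SN-011 tongue. The count filter thus favoured markers high in PBS, and their shared sign is no test. Of the fast fibre list 9 of 12 were above 0 with none called (median 0.20), and Des was at 2201 ± 357 and 2820 ± 286 CPM (0.36, adjusted p = 0.436). The other lists of muscle genes gave no like majority above 0, and none of their genes was called. Above 0 were 5 of 12 thin filament genes (median -0.11), 2 of 6 cardiac genes (-0.29), 5 of 9 slow fibre genes (0.01), 5 of 12 developing and regenerating muscle genes (-0.10) and 6 of 12 smooth muscle genes (-0.08). Marker genes of other cells mostly lay below 0, with none called. Above 0 were 0 of 5 fibroblast genes (median -0.27), 2 of 8 leukocyte genes (-0.43), 1 of 6 squamous genes (-0.62) and the 1 adipocyte gene tested (0.66). Des is a member of the smooth muscle list.

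In stomach the troponin T genes were uneven among the PBS libraries, and so was Acta1. Tnnt3 stood at 39.4, 1.75 and 2.09 CPM in PBS and at 61.9, 25.0 and 32.5 in SN-011 (1.48, SE 1.05, adjusted p = 0.412). Tnnt2 stood at 24.8, 4.99 and 1.71 and at 56.5, 19.4 and 32.7 (1.80, SE 0.84, adjusted p = 0.228). Acta1 was at 255, 2.37 and 1.87 and at 94.8, 93.1 and 51.1. In all 3 genes PBS replicate 1 lay within or above the SN-011 range and the other PBS stomachs below it. Without that library Tnnt3 was called (4.33, adjusted p = 0.0402), and Tnnt2 was not. Myh4 had 0 counts in all stomachs, and 11 of the 12 fast fibre genes reached 10 counts in every SN-011 stomach library, against 1 in every PBS one. The summed fast fibre list overlapped, from 3.60 to 103 CPM in PBS and from 56.9 to 101 in SN-011 stomachs.

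**Figure D4:**
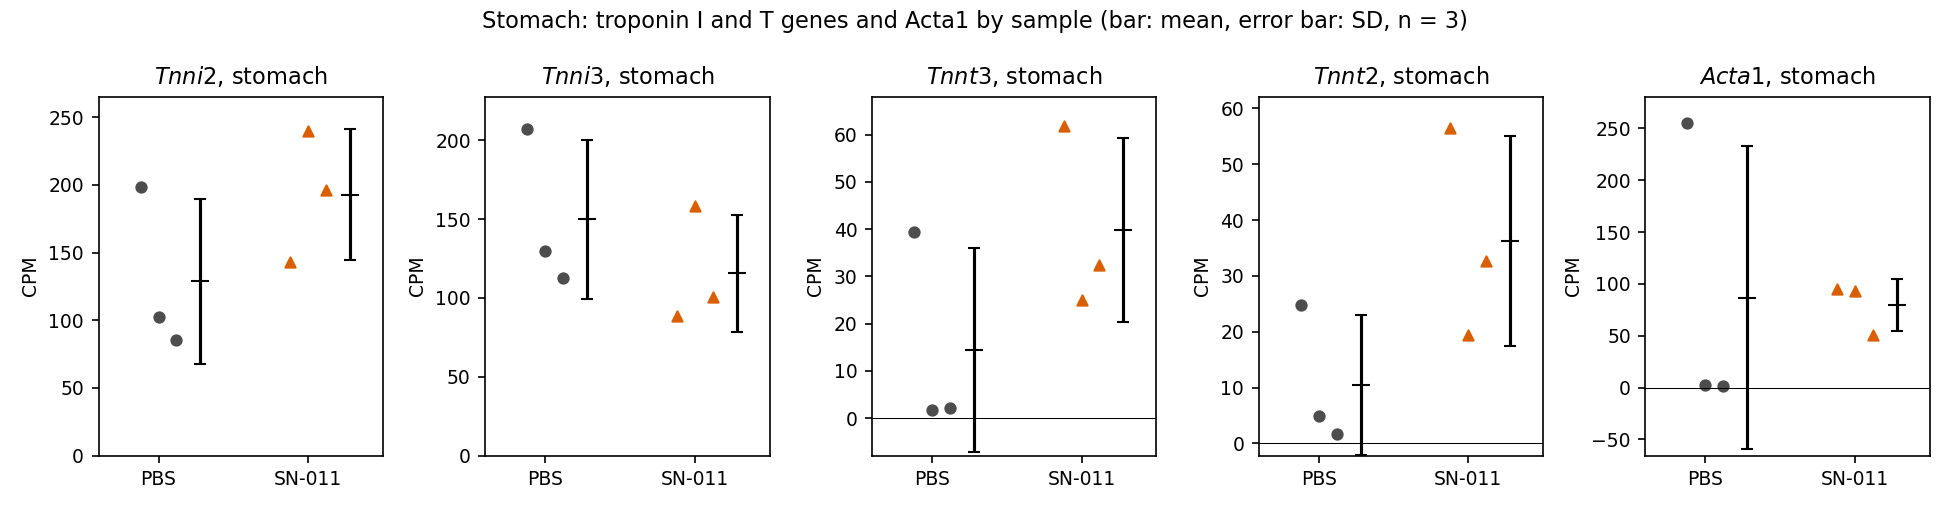
CPM in the stomach samples for Tnni2, Tnni3, Tnnt3, Tnnt2 and Acta1, PBS and SN-011, with points for samples and bars for mean and SD (n = 3), some of which reach below 0. PBS replicate 1 is the highest PBS sample in every panel, at 39.4 for Tnnt3 against 1.75 and 2.09.

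The troponin I genes in stomach had estimates of opposite sign, and neither was called. Tnni2 stood at 198, 102 and 85.4 CPM in PBS and at 143, 240 and 196 in SN-011 (0.58, SE 0.38, adjusted p = 0.371). Tnni3 stood at 207, 130 and 113 and at 88.5, 158 and 100 (-0.37, SE 0.34, adjusted p = 0.527). Neither separated by treatment. Without PBS replicate 1 the log2 change was 1.01 for Tnni2 and -0.096 for Tnni3, and that of Tnni3 was -0.68 without SN-011 replicate 2. As a share of troponin I per kb, Tnni2 was 53.1, 48.2 and 47.4% in PBS and 65.7, 64.2 and 69.8% in SN-011 stomachs, and Tnni3 took nearly all of the rest. The shares did not overlap between treatments, a feature that was picked out after the values were seen and was not tested. Tnnc1, the only troponin gene here whose CPM separated in full (1 of 6 tested, against 17.8% of all genes), had 0.968, 0.249 and 0.374 CPM in PBS and 2.12, 1.52 and 1.23 in SN-011 (1.63, SE 0.73, adjusted p = 0.210). Its counts were low, at 12, 4 and 7 in PBS and 36, 23 and 20 in SN-011 stomachs. It passed the count filter through the SN-011 group, where it is higher, so its separation is no test.

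Marker genes of other cells also had estimates away from 0 in stomach, and none was called. All 6 squamous genes were above 0 (median 2.29) and not overlapping between treatments, with Krt13 at 36.0 ± 15.7 and 166 ± 44.3 CPM (2.21, SE 0.39, adjusted p = 0.0621) and Krt4 at 14.5 ± 8.84 and 53.2 ± 12.2 (1.87, adjusted p = 0.0758). Of 12 smooth muscle genes 11 were above 0 (median 0.92), with Des at 812 ± 776 and 1973 ± 811 CPM (1.28, adjusted p = 0.289), and 6 of 8 stomach epithelium genes were below 0 (median -1.02). The summed squamous list ran from 90.0 to 204 CPM in PBS and from 370 to 1200 in SN-011, and the smooth muscle list from 2604 to 10456 and from 7388 to 13420. All 5 fibroblast genes (median 0.94) and 3 of 4 adipocyte genes tested (median 0.48) were above 0, as were 4 of 8 leukocyte genes (median 0.02). The summed adipocyte list ran from 51.2 to 156 CPM in PBS and from 158 to 194 in SN-011 stomachs. The part of these other cells in the troponin values was not tested.

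Whether the SN-011 change of a troponin gene differed between tissues was tested as an interaction in the joint fit, and 0 of 8 were called in each of the 6 tissue pairs, where the call rate over all genes was 0.00507% in heart against muscle, 0.0355% in tongue against muscle, 0% in heart against tongue, 2.01% in heart against stomach, 0.821% in tongue against stomach and 6.95% in muscle against stomach. Tnnc2, at 0 counts in every heart and stomach library, could not be called in any pair with heart or stomach. At an unadjusted p under 0.05 there was only Tnni2, in heart against muscle, tongue and stomach, where 6.6, 2.83 and 17.0% of all genes were. Its change in heart was below that in muscle (-1.48, SE 0.64, adjusted p = 0.726), in tongue (-1.34, SE 0.64, adjusted p = 0.999987) and in stomach (-1.40, SE 0.64, adjusted p = 0.268). These comparisons share the heart libraries. The heart change behind these goes from -0.86 to -0.13 without heart PBS replicate 2. Leaving out stomach PBS replicate 1, the count called was 3 against heart, 2 against tongue and 2 against muscle, and leaving out muscle SN-011 replicate 2 it was 1 for muscle against stomach.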

How the data were processed

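Total RNA was extracted with Trizol, selected for polyA, made into strand-specific libraries and sequenced as 2 × 150 nt pairs. The authors deposited raw read counts per gene (Ensembl identifiers), 1 file per sample. The submitters' processing notes name HISAT2, HTSeq and mm10, and the methods name Trimmomatic, hisat2 and featureCounts on uniquely mapped pairs. Versions, annotation and the strand setting of counting are not given in the sources used here. Counts overlapping genes on both strands are therefore uncertain.

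Symbols, positions and lengths came from GENCODE M21. Groups followed the labels. Whether samples of a group were separate mice is not stated in the labels, so p-values measure the spread between samples. The members and gene lists were chosen with earlier results of these data known. The main test was edgeR 4.0.16 quasi-likelihood (R 4.3.3, TMM, filterByExpr with a count minimum of 10), fitted within each tissue for treatment and over 24 samples for tissue pairs and interactions, with Benjamini-Hochberg adjustment over all genes and a threshold of 0.05. DESeq2 1.42.0, the edgeR exact test, other scalings, filters, replicate blocks and leaving out each sample were alternatives. Code was tested on simulated data. Genes set to be named were the 8 members, the 2 members of each list with the highest mean CPM per kb, any list gene called after SN-011, and the 2 genes nearest to each member in profile. Of the highest list members, Runx1, Acta2, Pgc, Gkn2, Cd68, Csf1r, Dcn, Fabp4 and Cidec are not given with values. Genes that mark libraries were named beside these.

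To check the replicate numbers, each sample's deviation from its group mean was correlated between groups. PBS samples of equal number correlated for heart and muscle (r = 0.24 to 0.57) and for tongue and muscle (0.18 to 0.46) in all 3 pairs. SN-011 samples of equal number showed no like correlation, at 0.04 to 0.07 and -0.01 to 0.03 for the same tissues. The other PBS tissue pairs, and PBS with SN-011 in the same tissue, had at least 1 pair at or below 0.1. For PBS stomach, all 3 pairs were above 0 with heart (0.08 to 0.27) and with muscle (0.08 to 0.23). PBS replicate 1 was the Xist-carrying library in all 4 tissues. Whether equal numbers mark the same mouse is not settled for any tissue pair.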

Additional observations from a re-analysis of the deposited data

How the results depend on the processing

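The counts of called troponin genes after SN-011 depended on the test. In heart 0 were called, against 3 by DESeq2 and 2 by the edgeR exact test. DESeq2 called 1 in muscle and 1 in tongue. The replicate block called 0 in each of the 4 tissues, where numbers did not pair the treatments, and other scalings, filters and the joint fit called 0. Over all genes, the calls in heart were 137 against 1354 (DESeq2), 912 (exact test), 1888 (no filter), 265 (at least 10 counts in every sample), 249 (library size alone), 242 (replicate block) and 1 (joint fit). In stomach they were 0 against 2389, 1807, 1368 and 126 in the first 4 of these, 181 with the block and 2738 in the joint fit. In muscle they were 2 against 880, 442, 110 and 75, and 474 in the joint fit, and in tongue 0 against 401, 246 and 18 in the first 3 and 4 in the joint fit. The cause was not tested.

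Leaving out each sample in turn, the called troponin genes ran from 0 to 0 in heart, 0 to 1 in stomach (1 without PBS replicate 1), 0 to 3 in muscle (3 without SN-011 replicate 2) and 0 to 3 in tongue (3 without PBS replicate 1). Without PBS replicate 1, the Xist-carrying library, 0 were called in heart and 0 in muscle, in fits that called 183 and 68 genes. For PBS tissue pairs the called troponin genes stayed at 8 (heart, muscle), 6 (heart, tongue) and 5 (tongue, muscle), and ran from 4 to 6 for heart and stomach, 7 to 8 for muscle and stomach and 5 to 8 for tongue and stomach. For interactions they ran from 0 to 3 between heart and stomach and from 0 to 2 between stomach and either tongue or muscle, highest without stomach PBS replicate 1, and for muscle and stomach 1 was called without muscle SN-011 replicate 2.

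Some small differences changed sign. Scaled by library size alone, Tnnt1 in heart was -0.087, Tnnc2 between tongue and muscle 0.021 and Tnnt2 between muscle and stomach -0.37. The last was -0.024 with DESeq2 size factors and -0.032 in DESeq2, and Tnnc2 in tongue was -0.033 with the replicate block. With 1 sample left out the log2 change ran from -0.16 to 0.23 for Tnnt1, -0.074 to 0.56 for Tnnt3 and -0.19 to 0.74 for Tnni1 in heart. In tongue it ran from -0.26 to 0.62 for Tnnt1, -0.49 to 0.81 for Tnni1, -0.17 to 1.34 for Tnnc1 and -0.52 to 0.47 for Tnnc2. Between tissues it ran from -2.84 to 0.62 for Tnnt3 in heart against stomach and from -0.34 to 1.85 for Tnnt2 in muscle against stomach. Scaling by library size alone moved the all-gene median between heart and muscle from 0.11 to 0.94.

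Whether the numbers of the PBS samples pair stomach with the other tissues is not settled (r = -0.14 to 0.27). The replicate block over the PBS samples gave Tnnt3 between heart and stomach as -1.49 (adjusted p = 0.248), Tnnt1 as 2.39 (adjusted p = 0.0238) and Tnnt2 between tongue and stomach as 1.89 (adjusted p = 0.0438). For heart and muscle and for tongue and muscle, whose PBS samples of equal number correlated, it changed no call against the fit of the same 12 samples without it. Between PBS tongue and muscle 5 troponin genes were called, against 7 by library size alone and 6 with no filter, in the 12 PBS samples and with the block. DESeq2 gave no adjusted p for Tnnt3 between tissues, and without it called 7 for heart against muscle, 6 for muscle against stomach, and 5 for tongue against either heart or muscle.

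The isoform shares moved little with length. In tongue Tnnt3 was 99.7% of troponin T with the union of all annotated exons as length, an alternative chosen after seeing the data, in both PBS and SN-011, and 99.0% in SN-011 with no length. Tnni2 in PBS tongue was 99.3% with no length and 99.6% with the union. Depth limited the lowest members: Tnnc2 never exceeded 15 counts.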
